A study of Mus musculus with 4 samples.

Results

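The genes of the actin and non-muscle myosin machinery were followed in sympathetic ganglia (SG) of mice kept in the cold. They were 10 genes taken by name from the 17667 genes listed in at least 1 library, namely the cytoplasmic actins *Actb* and *Actg1*, the non-muscle myosin II heavy chains *Myh9*, *Myh10* and *Myh14*, the myosin light chain *Myl6*, the cofilin *Cfl1*, the profilins *Pfn1* and *Pfn2*, and the GTPase *Rhoa*. All 10 were listed in all 4 libraries. RNA-seq had been run on SG of segments T1 to T4 from C57BL/6 mice 12 weeks old, all of them after 1 day at 5 °C. The groups were WT (2 libraries, here WT 1 and WT 2), TRKC+/- (1 library) and AdNTF3-Tg (1 library). TRKC+/- mice have 1 working copy of the gene for TRKC, the receptor of neurotrophin NT-3, in every cell of the body. AdNTF3-Tg mice overexpress NT-3 under the adiponectin promoter, which is active in adipocytes rather than in neurons. Each library was made from ganglia of several mice pooled together, no group at room temperature was analysed here, and each WT pool was, by the study's account, the control of 1 of the mutant lines. The labels do not say which WT library belongs to which mutant, so each mutant was set against each WT library, and a difference between the WT libraries can include one between the lines.

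Actin monomers join into filaments that shape the cell, and in neurons they fill the growth cone, the branches and the presynaptic terminal. Profilin feeds monomers to growing filament ends, cofilin severs and unloads old filaments, and non-muscle myosin II, a motor of paired heavy chains with light chains, pulls filaments past each other. RHOA is a membrane switch that, through its kinases, turns myosin II on and cofilin off. The same genes also work in glia, vessels, fibroblasts and immune cells of a ganglion.

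The libraries held between 8665955 and 8894985 reads on genes. *Ntrk3*, the gene of TRKC, had 2.45 FPKM (reads scaled to the length of the transcript and to the library total) in WT 1, 2.72 in TRKC+/-, 2.52 in WT 2 and 2.32 in AdNTF3-Tg, from 76 to 91 reads, so it was not lower in the library labelled TRKC+/-. *Ntf3*, the gene of NT-3, was listed only in the library labelled TRKC+/-, with 2 reads. The 10 sympathetic neuron markers were listed in all libraries and summed to between 9015 and 9730 FPKM, with *Th*, the enzyme that starts catecholamine synthesis, at 2576 to 2753. Markers of other cells, apart from endothelial ones, moved more between libraries, the WT libraries included. In the order WT 1, TRKC+/-, WT 2 and AdNTF3-Tg, the summed FPKM of 10 glia and Schwann cell markers was 1132, 1103, 967 and 1060, that of 6 fibroblast markers 324, 301, 248 and 279, and that of 6 adipocyte markers 366, 200, 333 and 269. In the same order 6 macrophage markers summed to 138, 124, 114 and 100, 6 smooth muscle markers to 90.3, 83.7, 70.0 and 72.3, and 6 endothelial markers to 65.5, 67.8, 69.1 and 64.3. The 9 skeletal muscle markers, 8 of them listed in all libraries, summed to 102, 47.2, 3.37 and 35.6, and 5 blood markers, 4 of them listed in all, to 172, 146, 65.2 and 88.0. In pooled tissue fewer cells of a type and less RNA per cell cannot be told apart, and the part of these shifts in the values below was not tested.

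**Figure D1:**
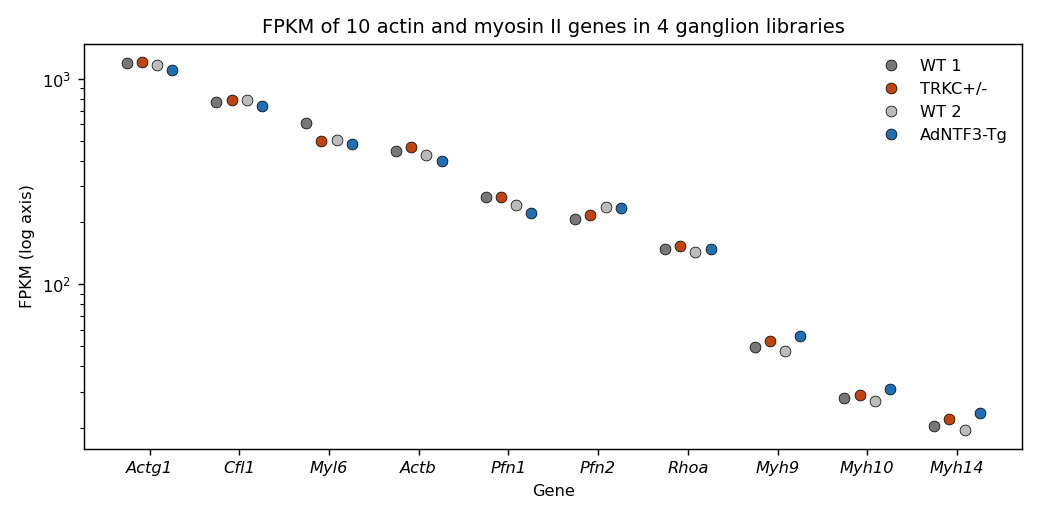
FPKM of the 10 genes (log axis) in WT 1, TRKC+/-, WT 2 and AdNTF3-Tg, 1 point for each library. *Actg1* stands highest at 1101 to 1204 FPKM and *Myh14* lowest at 19.4 to 23.7, and the 4 points of a gene lie close together compared with the gaps between most genes.

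Per kilobase of transcript, the levels spanned from *Actg1* at the top to the heavy chains at the bottom. *Actg1* ranked between the 18th and the 20th of all genes by FPKM, *Cfl1* between the 36th and the 38th, and *Myh14* between the 3539th and the 4226th. The order *Actg1*, *Cfl1*, *Myl6*, *Actb*, then the profilins, *Rhoa*, *Myh9*, *Myh10* and *Myh14* held in all 4 libraries, and only *Pfn1* and *Pfn2* changed places, with a *Pfn1* to *Pfn2* ratio of FPKM of 1.28 in WT 1, 1.22 in TRKC+/-, 1.02 in WT 2 and 0.945 in AdNTF3-Tg. The profilins are therefore neighbours whose levels did not differ beyond the spread of the WT libraries, in which *Pfn1* had 255 ± 16.4 FPKM and *Pfn2* 223 ± 21.6 (SD, n = 2). The next narrowest gap was that of *Myl6* over *Actb*, with a ratio between 1.06 in TRKC+/- and 1.38 in WT 1. Together the 10 genes took 0.599% of all reads in WT 1, 0.603% in TRKC+/-, 0.578% in WT 2 and 0.564% in AdNTF3-Tg. The highest library exceeded the lowest by 1.07 times for *Cfl1* and *Rhoa* up to 1.27 times for *Myl6*, with a median of 1.16, and the median was 1.15 over the 6798 genes that averaged 10 FPKM or more.

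The cytoplasmic actins are the subunits of the filaments, and they differ in few residues near the start of the protein. *Actb* (Entrez 11461) lies on the minus strand of chromosome 5, 143664794 to 143668433 in mouse build NCBIM37 (mm9). It had 446 FPKM in WT 1, 468 in TRKC+/-, 427 in WT 2 and 399 in AdNTF3-Tg, or 436 ± 13.5 in WT (SD, n = 2). AdNTF3-Tg was the lowest library and TRKC+/- the highest. *Actg1* (Entrez 11465; minus strand of chromosome 11, 120207004 to 120209856) stood at 1195, 1204, 1166 and 1101 FPKM in these libraries, or 1181 ± 20.7 in WT (SD, n = 2). Here too AdNTF3-Tg was lowest, and TRKC+/- lay just above WT 1. On the scale of log2 ratios of FPKM after adding 0.1, used throughout, *Actb* in AdNTF3-Tg was at -0.16 against WT 1 (95% counting interval -0.22 to -0.13) and -0.09 against WT 2 (-0.15 to -0.05), while WT 1 stood at 0.06 over WT 2 (0.03 to 0.13). *Actg1* in AdNTF3-Tg was at -0.12 (-0.16 to -0.11) and -0.08 (-0.11 to -0.05), and WT 1 over WT 2 at 0.04 (0.02 to 0.08). These exact Clopper-Pearson intervals are taken on reads per library total, so they need not centre on the FPKM ratio. They cover counting error between libraries only, not the spread between mice of a genotype. The AdNTF3-Tg ratios of both actins were smaller in size after the centring by transcript length given below. In the library labelled TRKC+/- the *Actb* ratios were 0.07 (0.02 to 0.11) and 0.13 (0.09 to 0.19) and the *Actg1* ratios 0.01 and 0.05. The expected counts of *Actb* were not whole in any library, which means that some reads were divided with related sequences, so its level is less certain than that of *Actg1*, whose counts were whole. The counts of *Myh9* (3436.64) and *Myh10* (1996.36) were also not whole in the library labelled TRKC+/-, and in no other.

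Promoter sequence is shown for *Actg1* and *Myl6*, the members with a CArG box among those searched, the binding site of serum response factor that many actin and muscle genes carry. The sequences are from RefSeq on GRCm38.p6, 120 bases ending just before the start site, 5′ to 3′ on the strand of the gene, with a CArG box, a CCAAT box (CCAAT, either strand) or a GC box (GGGCGG, either strand) in capitals. *Actg1* is chr11:120348496-120348615, minus strand, and *Myl6*, from 1 of its 2 annotated starts, chr10:128493010-128493129, minus strand.
Actg1: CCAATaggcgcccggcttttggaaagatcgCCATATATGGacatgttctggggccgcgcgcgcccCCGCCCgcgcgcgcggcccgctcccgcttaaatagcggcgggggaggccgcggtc
Myl6: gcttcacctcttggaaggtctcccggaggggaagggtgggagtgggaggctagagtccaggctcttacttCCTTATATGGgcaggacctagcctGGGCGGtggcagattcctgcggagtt
The *Actg1* box starts 90 bases before the start site and the *Myl6* box 50 bases before it. The promoter table used held 9 of the 10 members, 11 windows in all, and *Actb* was not searched. In the 250 bases before the start site, a CArG box was present in 2 of the 11 and in 1.47% of all 32851 promoters. A CCAAT box was present in 6 of the 11 and in 33.8% of all. For a GC box the values were 6 of the 11 and 32.7% of all. In *Actg1* 2 of the GC boxes overlap each other by 2 bases. A match is a description of letters and not a measured binding site.

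The 3 heavy chain genes encode the motor subunits of non-muscle myosin II, with MYH9 in isoform IIA, MYH10 in IIB and MYH14 in IIC. *Myh9* (Entrez 17886; minus strand of chromosome 15, 77591017 to 77672605) had 49.7 FPKM in WT 1, 52.7 in TRKC+/-, 47.3 in WT 2 and 56.1 in AdNTF3-Tg, or 48.5 ± 1.65 in WT (SD, n = 2). *Myh10* (Entrez 77579; plus strand of chromosome 11, 68505061 to 68630134) had 27.9, 29.0, 27.0 and 30.8 in the same order, or 27.4 ± 0.636 in WT. *Myh14* (Entrez 71960; minus strand of chromosome 7, 51861173 to 51926213) had 20.4, 22.0, 19.4 and 23.7, or 19.9 ± 0.665 in WT. Before the centring by transcript length given below, all 3 heavy chains therefore ran in 1 order, with AdNTF3-Tg highest, then TRKC+/-, WT 1 and WT 2. In AdNTF3-Tg, *Myh14* was at 0.22 over WT 1 (0.10 to 0.33) and 0.29 over WT 2 (0.17 to 0.40), *Myh9* at 0.18 (0.10 to 0.24) and 0.25 (0.18 to 0.32), and *Myh10* at 0.15 (0.05 to 0.23) and 0.19 (0.10 to 0.28). Each of these 6 counting intervals lies above 0. The ratios of WT 1 over WT 2 were smaller, at 0.07 for *Myh14*, 0.07 for *Myh9* and 0.05 for *Myh10*. In the library labelled TRKC+/- the ratios were 0.11 and 0.18 for *Myh14*, 0.09 and 0.16 for *Myh9* and 0.06 and 0.11 for *Myh10*, and only those of *Myh9* had counting intervals above 0 against both WT libraries (0.01 to 0.15 and 0.09 to 0.23). None of these ratios reached 0.5.

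The promoters of these genes are shown because the 3 shared a direction in AdNTF3-Tg, with the same motifs in capitals and the same 120 bases before the start site. *Myh9* is chr15:77842176-77842295, minus strand, *Myh10* is chr11:68691795-68691914, plus strand, and *Myh14* is chr7:44670844-44670963, minus strand.
Myh9: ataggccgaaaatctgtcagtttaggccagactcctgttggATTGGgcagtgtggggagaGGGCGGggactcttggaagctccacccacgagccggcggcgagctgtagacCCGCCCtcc
Myh10: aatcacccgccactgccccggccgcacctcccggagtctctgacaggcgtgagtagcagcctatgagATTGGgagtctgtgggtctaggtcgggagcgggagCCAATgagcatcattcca
Myh14: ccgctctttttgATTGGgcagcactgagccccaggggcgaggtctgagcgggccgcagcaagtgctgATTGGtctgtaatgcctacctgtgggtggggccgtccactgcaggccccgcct
Each of them holds at least 1 CCAAT box in these bases. Over the 250 bases before the start site *Myh9* has 2, *Myh10* has 3 and *Myh14* has 4. In that stretch 33.8% of all promoters and 6 of the 11 member windows hold at least 1. The motif was not tested against the shared direction. None holds a CArG box, and *Myh9* alone of the 3 holds GC boxes.

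*Myl6* encodes the essential light chain that stiffens the lever arm of non-muscle and smooth muscle myosin. It (Entrez 17904; minus strand of chromosome 10, 127927916 to 127930931) had 613 FPKM in WT 1, 497 in TRKC+/-, 506 in WT 2 and 484 in AdNTF3-Tg, or 560 ± 75.5 in WT (SD, n = 2), the widest relative spread of the 10 genes between WT libraries at 13.5% of the mean. WT 1 stood apart and the other 3 libraries lay close together. TRKC+/- was at -0.30 against WT 1 (-0.40 to -0.25) but -0.02 against WT 2 (-0.08 to 0.07), AdNTF3-Tg at -0.34 (-0.46 to -0.31) and -0.07 (-0.15 to 0.01), and WT 1 over WT 2 at 0.28 (0.25 to 0.39). A *Myl6* difference of either mutant therefore did not hold against both WT libraries. WT 1 also had the highest sums of the glia, fibroblast, adipocyte, macrophage, smooth muscle, skeletal muscle and blood markers given above, whose part in the *Myl6* value was not tested.

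*Cfl1* and the profilins control how fast actin monomers enter and leave filaments. *Cfl1* (Entrez 12631; plus strand of chromosome 19, 5490485 to 5494029), the main cofilin of non-muscle cells, had 772 FPKM in WT 1, 790 in TRKC+/-, 788 in WT 2 and 740 in AdNTF3-Tg, or 780 ± 11.4 in WT (SD, n = 2). It was among the steadiest of the 10 genes, with AdNTF3-Tg at -0.06 against WT 1 (-0.13 to -0.04) and -0.09 against WT 2 (-0.14 to -0.05), and TRKC+/- at 0.03 and 0.00. *Pfn1* (Entrez 18643; minus strand of chromosome 11, 70465352 to 70468146), the profilin of nearly all cells, stood at 267, 266, 244 and 222 FPKM in these libraries. AdNTF3-Tg was the lowest library, at -0.27 (-0.40 to -0.20) and -0.14 (-0.24 to -0.04), although WT 1 over WT 2 was at 0.13 (0.07 to 0.26) as well. *Pfn2* (Entrez 18645; minus strand of chromosome 3, 57645817 to 57651486), the profilin of neurons, had 208, 218, 238 and 235 FPKM. Its direction in the mutants turned with the WT library chosen, with TRKC+/- at 0.07 against WT 1 and -0.13 against WT 2, and AdNTF3-Tg at 0.17 (0.09 to 0.23) and -0.02 (-0.09 to 0.04). The WT libraries themselves were at -0.20 (-0.25 to -0.12) for WT 1 over WT 2.

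*Rhoa* (Entrez 11848; plus strand of chromosome 9, 108208536 to 108240270) had 149 FPKM in WT 1, 154 in TRKC+/-, 144 in WT 2 and 148 in AdNTF3-Tg, or 147 ± 3.82 in WT (SD, n = 2). AdNTF3-Tg lay between the WT libraries, at -0.01 (-0.10 to 0.05) and 0.04 (-0.04 to 0.12). TRKC+/- was at 0.04 (-0.04 to 0.11) and 0.09 (0.02 to 0.18).

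**Figure D2:**
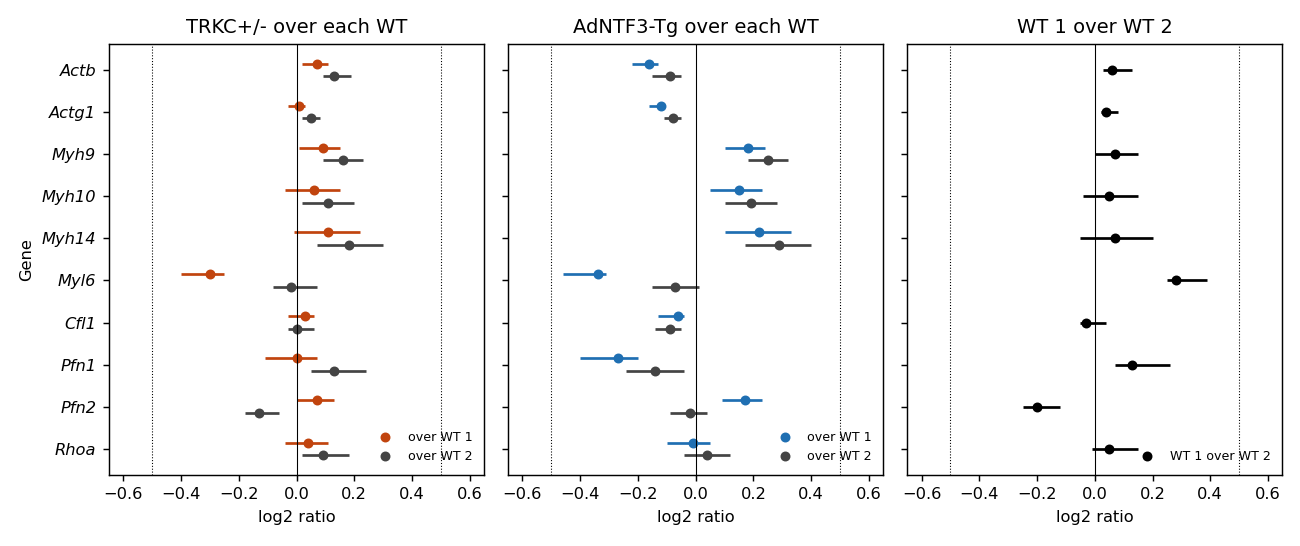
log2 ratio of FPKM (after adding 0.1) for each of the 10 genes, with TRKC+/- over each WT library, AdNTF3-Tg over each WT library and WT 1 over WT 2. Points are the ratios, bars the 95% counting intervals and dotted lines the limit of 0.5, which no point reaches; *Myh9*, *Myh10* and *Myh14* lie right of 0 in AdNTF3-Tg, and *Myl6* is low in both mutants only against WT 1.

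No member passed the limit of an absolute log2 ratio of 0.5 against both WT libraries, 0 of 10 in TRKC+/- and 0 of 10 in AdNTF3-Tg, where 4.27% and 5.70% of the 15275 genes listed in all libraries did. Against single libraries the count of members was also 0, while 10.7% of all genes passed in TRKC+/- over WT 1, 12.7% in TRKC+/- over WT 2, 13.9% in AdNTF3-Tg over WT 1, 13.3% in AdNTF3-Tg over WT 2 and 13.4% in WT 1 over WT 2. Of the 653 and 871 genes that passed against both WT libraries, 209 and 332 averaged 1 FPKM or more. By counting intervals off 0 in 1 direction against both WT libraries, 2 of 10 members stood out in TRKC+/- and 7 of 10 in AdNTF3-Tg, where 7.09% and 16.3% of the genes averaging 10 FPKM or more did. All 10 members had over 1000 reads in every library, where intervals are narrow. Among the 2032 genes that averaged 1000 reads or more, 6.84% lay above both WT libraries and 6.20% below both in TRKC+/-, beside 2 members above (*Actb* and *Myh9*) and 0 below. In AdNTF3-Tg 14.5% of these genes lay above and 15.2% below, beside 3 members above (the heavy chains) and 4 below (*Actb*, *Actg1*, *Cfl1* and *Pfn1*). Counting error was not the only spread between libraries of 1 genotype, since for 6 of the 10 members the interval of WT 1 over WT 2 was also off 0, with *Actb*, *Actg1*, *Myh9*, *Myl6* and *Pfn1* higher in WT 1 and *Pfn2* lower. The same was true of 28.3% of the genes averaging 10 FPKM or more and of 38.9% of those averaging 1000 reads or more.

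In edgeR's quasi-likelihood test with Benjamini-Hochberg adjustment over 13678 genes, which takes the spread from the WT pair with 1 residual degree of freedom, no member passed an adjusted p of 0.05. All members had an adjusted p of 0.999 in TRKC+/-, and in AdNTF3-Tg the adjusted p ran from 0.788 to 0.980. *Myh9* (log2 fold change 0.22, unadjusted p = 0.0182, adjusted p = 0.788 by edgeR) and *Myh14* (0.26, unadjusted p = 0.0217, adjusted p = 0.788) were the only members under an unadjusted p of 0.05 in AdNTF3-Tg, and none was in TRKC+/-. Over all genes 0.0146% passed in TRKC+/-, which are *Ucp1* and *Npcd*, named after their values were seen, and 0% in AdNTF3-Tg, where 848 genes had an unadjusted p under 0.05 (289 in TRKC+/-). DESeq2 also passed 2 genes in TRKC+/- and 0 in AdNTF3-Tg (20 and 55 at an unadjusted p under 0.05), and no member by either count. The lone mutant libraries are assumed in this test to vary as the WT libraries do.

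The members that stood above WT in AdNTF3-Tg have long transcripts and those that stood below have short ones, and all genes showed the same trend. The transcript lengths given in the deposited tables, averaged over libraries, are 7371 bases for *Myh9*, 7783 for *Myh10* and 6483 for *Myh14*, against 656 for *Myl6*, 883 for *Pfn1*, 1196 for *Cfl1*, 1889 for *Actb*, 1931 for *Actg1*, 2020 for *Pfn2* and 2126 for *Rhoa*. In AdNTF3-Tg over WT 1, the median log2 ratio of all genes of at least 1 FPKM was -0.22 under 1000 bases, -0.09 from 1000 to 2000, 0.00 from 2000 to 4000, 0.07 from 4000 to 6000 and 0.12 from 6000 bases up. Over WT 2 the medians were -0.13, -0.07, -0.00, 0.06 and 0.11. Among genes of at least 10 FPKM and 6000 bases, 35.0% had counting intervals above 0 against both WT libraries in AdNTF3-Tg and 0.407% below, while under 1000 bases 0% lay above and 33.1% below. The medians spanned less in TRKC+/-, with medians from -0.11 to 0.03 over WT 1 and from -0.03 to 0.02 over WT 2, and in WT 1 over WT 2, with medians from 0.08 under 1000 bases to -0.01 and -0.00 in the long groups. After the median of the length group was subtracted, the AdNTF3-Tg ratios were 0.10 and 0.18 for *Myh14*, 0.06 and 0.14 for *Myh9* and 0.03 and 0.09 for *Myh10* against WT 1 and WT 2, so the heavy chains stayed above both with smaller values. Centred in the same way, WT 1 over WT 2 was at 0.07 for *Myh14*, 0.07 for *Myh9* and 0.05 for *Myh10*, so that the AdNTF3-Tg values of *Myh9* and *Myh10* over WT 1 did not exceed the difference between the WT libraries. *Actb* then stood at -0.06 and -0.02, *Actg1* at -0.02 and -0.01, *Pfn1* at -0.05 and -0.00, and *Cfl1* at 0.03 and -0.02. In TRKC+/- the same step left *Myh14* at 0.10 and 0.19, *Myh9* at 0.08 and 0.16 and *Myh10* at 0.05 and 0.11. It left *Actb* at 0.09 and 0.14, *Pfn1* at 0.11 and 0.15, *Pfn2* at 0.05 and -0.14 and *Myl6* at -0.19 and 0.00. For the heavy chains the AdNTF3-Tg values were then no higher than those of TRKC+/-. This step was added after the data had been seen.

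**Figure D3:**
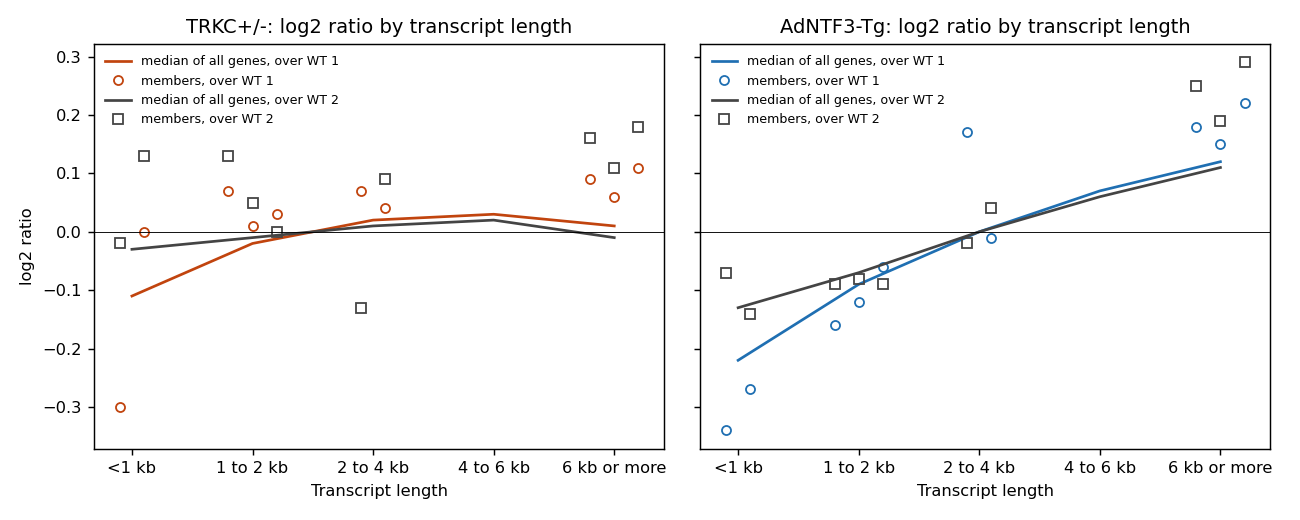
log2 ratio of FPKM by transcript length group for TRKC+/- and AdNTF3-Tg, with lines for the median of all genes of at least 1 FPKM and open symbols for the members, over WT 1 and over WT 2. In AdNTF3-Tg the lines climb from -0.22 and -0.13 under 1 kb to 0.12 and 0.11 from 6 kb up, with *Myl6* and *Pfn1* in the shortest group and the heavy chains in the longest.

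Shares within a gene family do not depend on a scaling of whole libraries, but they do on the length trend where the genes differ in length. *Pfn1* is shorter than *Pfn2*, and in AdNTF3-Tg over WT 2 they were at -0.14 and -0.02 before centring by length and at -0.00 and -0.02 after it. *Actb* made up 27.2% of the FPKM of the cytoplasmic actins in WT 1, 28.0% in TRKC+/-, 26.8% in WT 2 and 26.6% in AdNTF3-Tg. Among the heavy chains *Myh9* held 50.8%, 50.8%, 50.5% and 50.7% in the same order, *Myh10* 28.5%, 27.9%, 28.8% and 27.9%, and *Myh14* 20.8%, 21.2%, 20.7% and 21.4%. The mRNA share of each heavy chain thus varied by less than 1 percentage point across the 4 libraries, and the summed heavy chain level was 97.9 FPKM in WT 1, 104 in TRKC+/-, 93.7 in WT 2 and 111 in AdNTF3-Tg. The profilin share moved most, with *Pfn1* at 56.2% of both profilins in WT 1, 54.9% in TRKC+/-, 50.5% in WT 2 and 48.6% in AdNTF3-Tg, and the WT libraries alone gave 53.4 ± 4.01% (SD, n = 2). *Cfl1* held 76.2%, 76.6%, 74.5% and 73.6% of its family with *Cfl2* and *Dstn*, the muscle cofilin and destrin. *Rhoa* held 50.9%, 51.0%, 50.1% and 53.8% of its family with *Rhob* and *Rhoc*. *Myl6* held 98.8%, 98.3%, 97.9% and 98.5% with *Myl6b*.

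**Figure D4:**
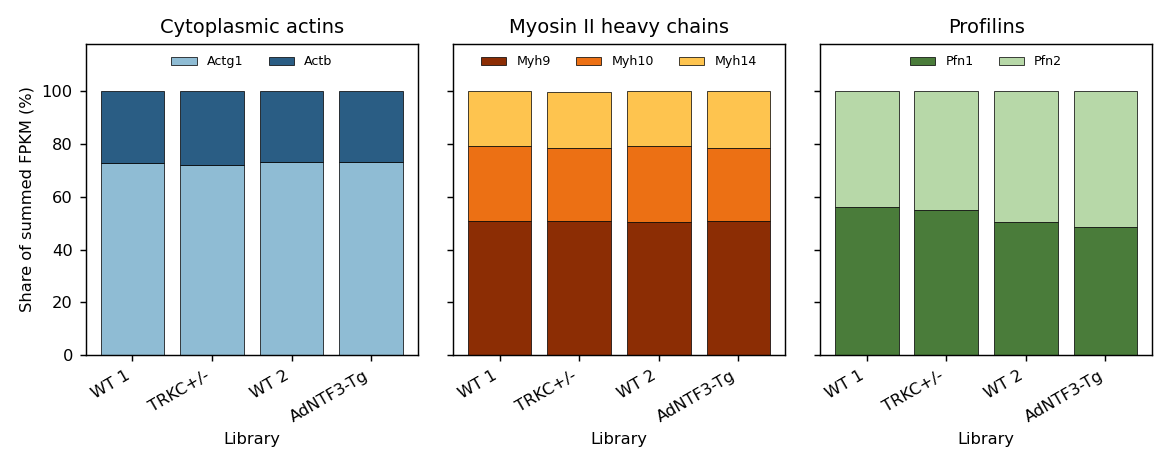
Share of summed FPKM (%) of each gene within the cytoplasmic actins, the myosin II heavy chains and the profilins, as stacked bars from 0 to 100% for each library. The heavy chain bars differ by less than 1 percentage point between libraries, and *Pfn1* goes from 56.2% in WT 1 to 48.6% in AdNTF3-Tg.

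Between families, the ratio of summed cytoplasmic actin to summed heavy chain FPKM was 16.8 in WT 1, 16.1 in TRKC+/-, 17.0 in WT 2 and 13.6 in AdNTF3-Tg. AdNTF3-Tg lay below the other 3 libraries, and the families differ in transcript length as given above. The ratio of *Myl6* to the heavy chains was 6.26, 4.79, 5.40 and 4.37 in the same order, again lowest in AdNTF3-Tg and highest in WT 1.

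The rest of the actin machinery was described with 95 other genes in 5 lists, all of them listed in all libraries. None passed 0.5 against both WT libraries in either mutant, and none passed edgeR's adjusted p of 0.05, where 3 genes in TRKC+/- and 8 in AdNTF3-Tg had an unadjusted p under 0.05. Their median log2 ratios were 0.01 and -0.02 in TRKC+/- and 0.01 and -0.01 in AdNTF3-Tg over WT 1 and WT 2, beside 0.05 and 0.10, and -0.04 and -0.04, for the 10 members. The medians of all genes lay between -0.00 and 0.00 in these 4 comparisons. By counting intervals against both WT libraries, 4 of the 95 lay above and 2 below in TRKC+/-, and 9 above and 9 below in AdNTF3-Tg. As shares of the 95 these are near the 7.09% and 16.3% of all genes averaging 10 FPKM or more, so they are not a result about these genes. The ratios of the 95 genes, here and below, are not centred by length, and the part of the length trend in them was not tested.

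Among 26 genes of filament nucleation and elongation, 0 lay above and 1 below in TRKC+/-, and 2 above and 3 below in AdNTF3-Tg. *Brk1*, a small subunit of the WAVE complex, was at -0.13 and -0.16 in TRKC+/- and -0.16 and -0.19 in AdNTF3-Tg, and *Abi1*, another WAVE subunit, was at 0.19 and 0.17 in AdNTF3-Tg. *Diaph1*, a formin that RHOA switches on, had 6.38, 5.98, 6.10 and 5.03 FPKM in the order WT 1, TRKC+/-, WT 2 and AdNTF3-Tg, and *Arpc3*, an ARP2/3 subunit, had 223, 206, 220 and 196. Among 19 genes of monomer binding, severing and capping, 1 lay above and 1 below in TRKC+/-, and 0 above and 4 below in AdNTF3-Tg. *Tmsb4x*, whose peptide holds actin monomers in reserve, was about as abundant per kilobase as *Actg1*, with 1314 FPKM in WT 1, 1117 in TRKC+/-, 1384 in WT 2 and 1161 in AdNTF3-Tg. Both mutants were below both WT libraries for it, at -0.23 and -0.31 in TRKC+/- and -0.18 and -0.25 in AdNTF3-Tg, though the mutants share these WT libraries. *Coro1a*, a coronin, was at -0.16 and -0.18 in AdNTF3-Tg, and at 0.12 and 0.10 in TRKC+/-, where both counting intervals included 0 (-0.02 to 0.24).

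Among 18 genes of crosslinking and side binding, 1 lay above in TRKC+/- and 2 in AdNTF3-Tg, with 0 below in either. *Marcks*, which tethers actin to the membrane, had 26.6 FPKM in WT 1, 36.7 in TRKC+/-, 32.6 in WT 2 and 37.0 in AdNTF3-Tg, so both mutants were higher than both WT libraries, which themselves differed. *Fscn1*, which bundles filaments in growth cones, was at 0.11 and 0.12 in TRKC+/-, with both counting intervals including 0, and *Add2*, an adducin, at 0.20 and 0.14 in AdNTF3-Tg. Among 13 other myosin II light chains and regulators, 0 lay above or below in TRKC+/-, and 3 lay above and 1 below in AdNTF3-Tg. The median of that list was 0.10 over WT 1 and 0.15 over WT 2 in AdNTF3-Tg and -0.06 and -0.03 in TRKC+/-. In AdNTF3-Tg the medians were 0.05 and -0.02 for the nucleation list and -0.09 and -0.08 for the monomer list. Those of the crosslinking list were 0.00 and 0.02. None of these medians is centred by length. Over all genes of at least 1 FPKM the AdNTF3-Tg medians ran from -0.22 and -0.13 under 1000 bases to 0.12 and 0.11 from 6000 bases up. The part of that trend in the list medians was not tested. Among the light chains in AdNTF3-Tg, named after their values were seen, *Myl12b* was at -0.21 and -0.19, the 1 gene below both WT libraries. *Myl12a* was at -0.19 and -0.14, with an interval including 0 against WT 2 (-0.30 to 0.02). *Myl9* was at -0.39 over WT 1 but 0.20 over WT 2, and *Myl6b* at -0.04 and -0.62. *Ppp1r12b*, a targeting subunit of myosin phosphatase, was at 9.08 FPKM in WT 1, 8.61 in TRKC+/-, 9.09 in WT 2 and 11.2 in AdNTF3-Tg. *Cit*, citron kinase, and *Rock1*, a kinase that RHOA uses, were low. *Cit* was at 2.27, 2.82, 1.85 and 2.69 FPKM and *Rock1* at 3.83, 3.53, 4.76 and 4.34. The related *Rock2* stood higher, with 13.9 FPKM in WT 1, 13.2 in TRKC+/-, 13.1 in WT 2 and 14.9 in AdNTF3-Tg.

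*Rhoc*, a close relative of *Rhoa*, had 82.7 FPKM in WT 1, 78.2 in TRKC+/-, 82.5 in WT 2 and 65.4 in AdNTF3-Tg, where its ratios were -0.34 and -0.33. The WT libraries were nearly equal for *Rhoc*, and *Rhoa* showed no such difference, at -0.01 and 0.04. These *Rhoc* and *Rhoa* ratios are not centred by length, and the part of the length trend in the contrast was not tested. In TRKC+/- *Arhgdib* was at -0.36 (-0.82 to 0.05) and -0.53 (-0.95 to -0.10), and in AdNTF3-Tg at -0.10 and -0.26. *Ssh1*, a cofilin phosphatase, was at 0.31 (-0.03 to 0.65) and 0.66 (0.31 to 1.04) in TRKC+/- and at 0.15 and 0.50 in AdNTF3-Tg. *Ssh3*, of the same family, was at -0.23 (-0.52 to 0.04) and -0.30 (-0.58 to -0.03) in AdNTF3-Tg and at -0.03 and -0.10 in TRKC+/-. For *Arhgdib* and *Ssh1* in TRKC+/- and *Ssh3* in AdNTF3-Tg, the interval against WT 1 included 0.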

How the data were processed

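Polyadenylated RNA of pooled SG had been sequenced as single-end reads. The study's methods name SOAPnuke, HISAT2 and build mm9, whereas the submitters' processing notes name RSEM and mm10, and whether counting used strand is not stated. Genes are keyed by Entrez number. The authors deposited for each of them an expected count, which is not normalized and need not be whole (92.6% to 93.7% were, to within 0.005 reads), and an FPKM value scaled by the authors to transcript length and library total. Symbols matched 99.7% of identifiers. Positions are from GENCODE on NCBIM37 and promoters from RefSeq.

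Reads on genes numbered 8665955 to 8894985 per library, so that the floor of 3 reads equals 0.337 to 0.346 CPM. Libraries were grouped by their labels. The study describes WT controls of each mutant line, which the labels do not tell apart, so the 2 WT pools, taken as 1 group, may differ by line as well as by technical spread, and p-values measure only the spread between these pools. The log2 ratio used a pseudocount of 0.1 FPKM over genes listed in all libraries, and a call needed an absolute value of at least 0.5, the study's own limit, in 1 direction against both WT libraries. Counting intervals (95%) used expected counts rounded to whole numbers, with reads of the library as total. edgeR 4.0.16 (quasi-likelihood, TMM) was run in R 4.3.3 on the rounded counts of genes with at least 40 reads over the 4 libraries, with WT as a group of 2. DESeq2 1.42.0, other pseudocounts, limits, filters and scalings were alternatives. The edgeR step was tested on simulated data. All members were named, together with *Ntrk3*, *Ntf3*, the paralogs used for shares and, from each other actin list, up to 2 genes per mutant with the largest smaller ratio of the 2 WT comparisons and any gene called. The members, lists and markers were chosen with earlier results of these data known. The counts of 1 of the 5 other actin lists are not reported here.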

Additional observations from a re-analysis of the deposited data

How the results depend on the processing

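With 1 library in each mutant group there is no check of the spread within a mutant, and for 6 of the 10 members, and 38.9% of all genes averaging 1000 reads or more, the WT libraries differed by more than counting error. A log2 ratio of a member counts here as moved when its shift exceeds the mean half-width of its counting intervals, not the WT spread. Under other pseudocounts, a low-value filter, TMM, DESeq2 size factors and median centring, none of the 10 members moved in either mutant. The same held with the mean of both WT libraries as control. With 1 WT library left out, 2 of 10 moved in each mutant (*Myl6* and *Pfn2*), and centring by transcript length, added after the data had been seen, moved 7 of 10 in AdNTF3-Tg and 0 of 10 in TRKC+/-. By counting intervals, 2 members in TRKC+/- and 7 in AdNTF3-Tg stood apart in place of 0, and for the other 95 actin genes the count went from 0 to 6 and 18 by intervals, to 3 and 2 at a limit of 0.3, and to 0 to 4 and 2 to 3 without 1 WT library. Over all genes, the 653 calls in TRKC+/- became 105 with a pseudocount of 1, 209 with a mean of at least 1 FPKM, 202 after length centring, 1447 at a limit of 0.3, 1308 against the WT mean and 1632 to 1933 without 1 WT library. The 871 calls in AdNTF3-Tg became 165, 332, 317, 1949, 1674 and 2033 to 2116 in the same order, and 1551 by intervals. The 2044 genes past the limit between WT libraries became 633, 926 and 920 under the pseudocount of 1, the filter and length centring. edgeR passed 2 genes in TRKC+/- and 0 in AdNTF3-Tg, 4 and 5 with DESeq2-type (RLE) scaling, and 0 in TRKC+/- without the filter. Counted by reads in place of FPKM, the shares were 26.5% for *Actb*, 51.1%, 30.5% and 18.4% for *Myh9*, *Myh10* and *Myh14*, 32.5% for *Pfn1*, 62.7% for *Cfl1*, 58.0% for *Rhoa* and 97.3% for *Myl6*, since reads are not divided by transcript length. No paired analysis was possible because each mutant group holds 1 library without a replicate number to match, and edgeR without a WT library would leave no residual degrees of freedom.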
